A study of Mus musculus with 14 samples.

Results

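The comparison described here is how the effect of depleting TP53INP2 differed between undifferentiated and differentiating 3T3-L1 cells. For each gene it is the stage difference: knockdown minus control at day 7, minus knockdown minus control at day 0, on the deposited log2 expression values. All 14 of the 14 arrays entered it, and it was computed for 18193 genes, each read from its brightest probe set, by the mean of all arrays, among probe sets annotated to a single gene symbol. 3T3-L1 is an established mouse preadipocyte line. Control cells carried a lentivirus with a scrambled sequence, and knockdown cells a lentivirus with an siRNA sequence against TP53INP2. Both were sampled at day 0, when preadipocytes kept in proliferation medium had been confluent for 2 days (3 control and 3 knockdown arrays), and at day 7, after culture in differentiation medium (4 control and 4 knockdown arrays). Every group is therefore a virus-carrying culture of the same line, and a lasting difference between the 2 cultures that has another origin cannot be told apart from the knockdown. The labels do not say whether replicates were separate cultures. A p-value here is therefore set against the spread of these samples, part or all of which may be technical.

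TP53INP2 (mouse gene Trp53inp2) is known as a protein that leaves the nucleus to take part in autophagosome formation and that also binds and co-activates thyroid hormone receptors. Confluent 3T3-L1 preadipocytes given adipogenic medium re-enter the cell cycle for a short time, then switch on the transcription factors PPAR gamma and C/EBP alpha and, with them, the genes of lipid synthesis, storage and breakdown. A gene that responds to the knockdown alike in preadipocytes and in maturing fat cells has a stage difference near 0, whatever the size of its response. A positive stage difference says that knockdown cells stood higher against their controls at day 7 than at day 0, and a negative one the reverse.

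The labelled cell states were checked against markers. In control cells Adipoq (adiponectin) went from a mean of 4.46 ± 1.29 (SD, n = 3) at day 0 to 10.32 ± 0.91 (SD, n = 4) at day 7, while the preadipocyte marker Dlk1 went from 13.37 to 12.44. Of the other preadipocyte markers, Pdgfra went from 12.59 to 12.06, Pdgfrb from 11.05 to 9.97 and Thy1 from 12.4 to 11.98. Cd34, also a preadipocyte marker, went the other way, from 3.52 to 4.31. Lep (leptin) stayed between 2.39 and 2.60 in all 4 group means. The macrophage markers Ptprc, Adgre1 and Itgam had group means between 2.23 and 3.36, Lyz2 between 4.83 and 5.44, and Csf1r and Cd68 between 6.39 and 9.14. Among neural markers Snap25 went from 4.17 to 7.35 in control cells, while Tubb3 and Rbfox3 changed by -0.02 and -0.04. Plin1 and Cfd are unnamed here. Trp53inp2 itself was 12.45, 12.53 and 12.38 in the control arrays at day 0 against 11.06, 11.14 and 11.66 in the knockdown arrays. At day 7 it was 11.74, 11.77, 11.78 and 11.70 in control arrays against 10.20, 10.06, 10.01 and 10.45 in knockdown arrays. The groups did not overlap on either day, and the knockdown effect was -1.17 at day 0 and -1.57 at day 7, with a stage difference of -0.40 ± 0.20 (SE; adjusted p = 0.421; 95% interval -0.83 to 0.03). A second, much dimmer Trp53inp2 probe set, with a mean level of 4.69, had effects of 0.20 and 0.24.

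Within every group, replicates 1 and 2 lay closer to each other than to any other array. The SD over genes of their difference was 0.246 in control and 0.224 in knockdown cells at day 0 and 0.111 and 0.179 at day 7, while the other pairs of arrays of a group had SDs of 0.307 to 0.541. The values were not identical, and whether these arrays hold RNA of the same culture is not given in the sources used here, so results are also given with replicates 1 and 2 averaged. The difference between the 3' and 5' control probe sets of beta-actin, a measure of RNA length, was 3.54 ± 0.22 (SD, n = 3) in control and 2.98 ± 0.25 (SD, n = 3) in knockdown arrays at day 0, with no overlap. At day 7 it was 3.25 ± 0.31 and 3.04 ± 0.28 (SD, n = 4 each), and the groups overlapped.

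Few genes passed the test of the stage difference. With a mean per group and no block, limma called 4 of 18193 genes at a Benjamini-Hochberg adjusted p under 0.05, which is 0.022%: Ehhadh, Cd274 and Edem1 with a positive stage difference (0.0165%) and Gdpd2 with a negative one (0.0055%). An unadjusted p under 0.05 was reached by 2403 genes, or 13.2%. With the replicate number within each day as a block, which compares each knockdown array with the control array of the same number, 196 genes were called, or 1.08%, of which 135 (0.742% of all genes) were positive and 61 (0.335%) negative, and 20.2% of genes had an unadjusted p under 0.05. The block called all 4 genes of the unblocked fit and 192 others. The median SE of the stage difference was 0.212 without the block and 0.172 with it. With replicates 1 and 2 averaged, limma called 0 genes both without the block, where 1159 had an unadjusted p under 0.05, and with it, where 2332 did.

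The simple effects were called far more often. At day 0 the unblocked fit called 328 genes (1.8%), 85 higher (0.467%) and 243 lower (1.34%) in knockdown cells, and at day 7 it called 1197 (6.58%), 547 higher (3.01%) and 650 lower (3.57%). Of these, 116 were called on both days, 115 of them in the same direction. The exception was Gdpd2. Of the 212 genes called at day 0 alone, 1 (Edem1) had a stage difference that passed, and of the 1081 called at day 7 alone, 2 did (Ehhadh and Cd274). With the block, 43 of these 212 genes and 53 of these 1081 genes had a called stage difference. Over all genes the share called was 0.022% without the block and 1.08% with it. The genes were grouped by the same day effects that make up the stage difference, so these counts are a description. A call on a single day was thus in most cases not accompanied by a called difference between the days, in either fit. Across genes the effects at day 0 and day 7, which share no array, had a Pearson correlation of 0.37 and a Spearman correlation of 0.24. This is a description over 18193 genes, which are not independent. The SD of the effect over genes was 0.36 at day 0 and 0.37 at day 7, and that of the stage difference was 0.41. The stage difference was at least 1 in size for 639 genes and at least 2 for 41, of which 26 were positive and 15 negative. Its median over all genes was 0.042, and 55.6% of genes were positive.

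**Figure D1:**
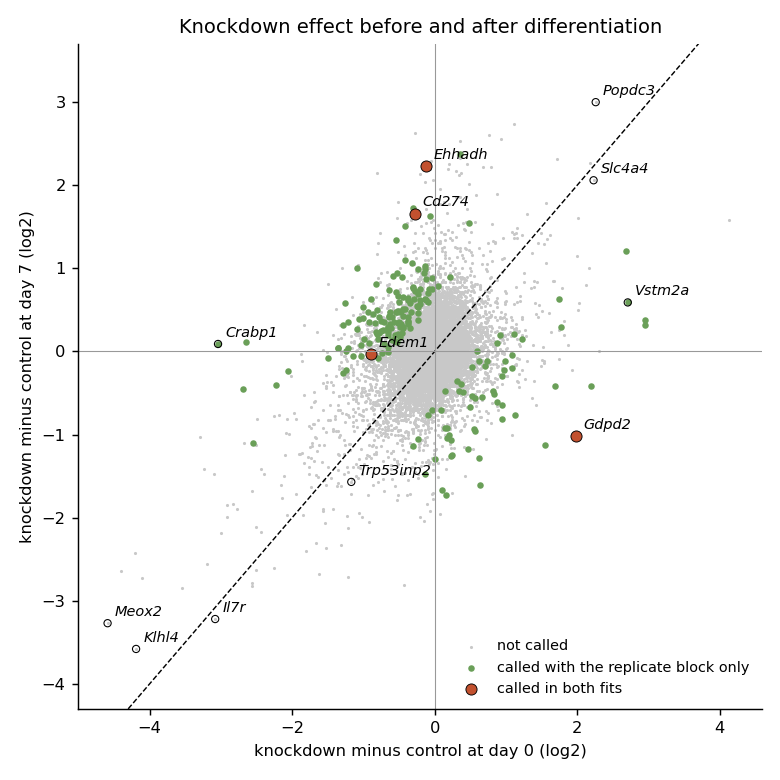
Each point is 1 of 18193 genes, with knockdown minus control at day 0 (log2) across and the same at day 7 (log2) up; the dashed line marks equal effects. The 4 large red points are called in both fits, the green points are the 192 genes called only with the replicate block, and open rings mark labelled genes not called in both fits, such as Klhl4 and Il7r near the line.

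The 4 genes called in both fits differ in the day on which they responded: Ehhadh and Cd274 at day 7, Edem1 at day 0, and Gdpd2 on both days in opposite directions. Their promoters are shown so that the sequence just upstream of each transcript can be read beside its values. Each is the 250 bases before a RefSeq transcript start on build GRCm38.p6, written 5′ to 3′ on the strand of the gene, taken at chr16:21787835-21788084 (minus strand) for Ehhadh, chr19:29367188-29367437 (plus strand) for Cd274, chr6:108828391-108828640 (plus strand) for Edem1 and chrX:100729597-100729846 (plus strand, the first of 2 starts in the table) for Gdpd2. The windows of Cd274 and Edem1 lie inside the annotated genes, so they precede a start other than the outermost. That of Gdpd2 runs a few bases past the annotated gene start at 100729836, so its start is not the outermost either. Capitals mark matches on either strand of the GC box GGGCGG, the CCAAT box CCAAT and the TATA box TATAAA, which occur in 32.7%, 33.8% and 12.4% of the 32851 promoters of the table.
Ehhadh: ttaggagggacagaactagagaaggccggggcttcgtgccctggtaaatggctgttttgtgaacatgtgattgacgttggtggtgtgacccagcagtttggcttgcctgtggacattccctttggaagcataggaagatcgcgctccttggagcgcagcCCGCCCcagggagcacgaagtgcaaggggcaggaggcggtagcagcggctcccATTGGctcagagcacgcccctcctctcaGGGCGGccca
Cd274: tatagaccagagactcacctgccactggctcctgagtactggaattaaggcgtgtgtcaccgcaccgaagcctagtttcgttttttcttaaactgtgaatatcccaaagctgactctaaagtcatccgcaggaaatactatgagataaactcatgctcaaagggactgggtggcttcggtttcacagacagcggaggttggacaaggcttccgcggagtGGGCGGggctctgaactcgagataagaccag
Edem1: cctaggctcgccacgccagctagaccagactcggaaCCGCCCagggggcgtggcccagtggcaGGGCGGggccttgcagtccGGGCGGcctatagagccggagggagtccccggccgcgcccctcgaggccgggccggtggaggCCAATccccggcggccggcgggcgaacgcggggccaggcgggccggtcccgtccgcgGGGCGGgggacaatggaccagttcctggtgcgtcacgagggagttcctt
Gdpd2: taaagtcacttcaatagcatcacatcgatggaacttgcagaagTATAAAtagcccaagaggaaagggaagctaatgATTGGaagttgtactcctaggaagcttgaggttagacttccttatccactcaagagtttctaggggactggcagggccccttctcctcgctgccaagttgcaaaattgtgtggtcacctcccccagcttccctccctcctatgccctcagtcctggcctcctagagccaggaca
These windows hold 2 GC boxes and 1 CCAAT box for Ehhadh, 1 GC box for Cd274, 4 GC boxes and 1 CCAAT box for Edem1, and 1 CCAAT box and 1 TATA box for Gdpd2. GC content runs from 50.0% in Gdpd2 and 50.4% in Cd274 over 60.4% in Ehhadh to 76.0% in Edem1. A nuclear receptor direct repeat (2 copies of AGGTCA, 1 base apart), an endoplasmic reticulum stress element (CCAAT and CCACG, 9 bases apart), the interferon gamma activated site TTCNNNGAA, an interferon response core (2 copies of GAAA, 2 bases apart) and the E-box CACGTG were also searched and are not in any of the 4 windows. They occur in 0.034%, 0.113%, 7.02%, 2.98% and 6.02% of all promoters. A match is a string of letters and not a measured binding site.

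Ehhadh encodes the peroxisomal bifunctional enzyme of fatty acid beta-oxidation. Its level was 2.90, 3.33 and 2.73 in control and 2.79, 2.78 and 3.04 in knockdown arrays at day 0. At day 7 it was 2.76, 3.10, 3.12 and 2.74 in control and 5.27, 5.27, 4.98 and 5.10 in knockdown arrays. The first 3 groups overlapped near the bottom of the scale, and all 4 knockdown arrays at day 7 stood above them. The knockdown effect was -0.12 at day 0 (adjusted p = 0.81) and 2.23 at day 7 (adjusted p = 2.07e-05), and the stage difference was 2.34 ± 0.22 (SE; limma adjusted p = 0.00168, with the block 0.0164; 95% interval 1.88 to 2.81). The files give no detection call, and with 3 groups near the bottom of the scale, where RMA compresses changes, these sizes are no exact folds. Ehhadh did not change with differentiation in control cells beyond the spread (-0.06, adjusted p = 0.849) and rose in knockdown cells (2.29, adjusted p = 8.44e-07). It passed with any single array left out, at stage differences of 2.17 to 2.47. With replicates 1 and 2 averaged its stage difference was 2.20 and the adjusted p 0.218.

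Cd274 encodes PD-L1, the ligand of the T cell inhibitory receptor PD-1. Control arrays at day 0 had 7.16, 7.25 and 7.13 and knockdown arrays 6.85, 6.75 and 7.09. At day 7 control arrays had 6.48, 6.52, 6.91 and 6.06 and knockdown arrays 8.44, 8.34, 7.80 and 8.03. Knockdown arrays were just below the controls at day 0 and well above them at day 7, with no overlap on either day. The effect was -0.28 at day 0 (adjusted p = 0.565) and 1.66 at day 7 (adjusted p = 0.000471), a 3.16-fold higher level, and the stage difference was 1.95 ± 0.27 (SE; adjusted p = 0.047, with the block 0.0324; 95% interval 1.36 to 2.53). In control cells Cd274 fell by 0.69 with differentiation (adjusted p = 0.0194), and in knockdown cells it rose by 1.26 (adjusted p = 0.00021). It passed in 4 of the 14 fits that leave out 1 array, with adjusted p from 0.0119 to 0.137, and its stage difference was 1.81 with replicates 1 and 2 averaged (adjusted p = 0.673).

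Edem1 encodes a lectin-like protein that takes misfolded glycoproteins out of the folding cycle of the endoplasmic reticulum for degradation. At day 0 its level was 9.62, 9.52 and 9.62 in control and 8.67, 8.68 and 8.74 in knockdown arrays. At day 7 it was 9.75, 9.72, 9.78 and 9.55 in control and 9.83, 9.63, 9.64 and 9.57 in knockdown arrays. The knockdown arrays at day 0 stood apart from the other 3 groups, which overlapped. The effect was -0.89 at day 0 (adjusted p = 0.000588), 1.85-fold lower, and -0.03 at day 7 (adjusted p = 0.862), giving a stage difference of 0.86 ± 0.12 (SE; adjusted p = 0.047, with the block 0.029; 95% interval 0.59 to 1.12). A second, dimmer Edem1 probe set gave 0.18 ± 0.16 (SE; adjusted p over all probe sets 0.686), so the call rests on the brighter one. It passed in 4 of the 14 fits that leave out 1 array, and with replicates 1 and 2 averaged its stage difference was 0.85 (adjusted p = 0.673).

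Gdpd2 encodes a membrane glycerophosphodiesterase. It was 7.87, 7.97 and 8.20 in control and 10.29, 10.39 and 9.30 in knockdown arrays at day 0. At day 7 it was 7.67, 7.74, 8.06 and 8.85 in control and 6.78, 6.99, 7.28 and 7.17 in knockdown arrays. Knockdown arrays were above their controls at day 0 and below them at day 7, without overlap on either day. The effect was 1.98 at day 0 (adjusted p = 0.00806), 3.94-fold higher, and -1.02 at day 7 (adjusted p = 0.0453), 2.03-fold lower. The stage difference was -3.00 ± 0.42 (SE; adjusted p = 0.047, with the block 0.0288; 95% interval -3.91 to -2.09), the largest in size among all negative ones. It passed in 4 of the 14 fits that leave out 1 array, and with replicates 1 and 2 averaged it was -2.85 (adjusted p = 0.673). When the beta-actin 3' to 5' difference was added to the model, 4 genes were called, of which Ehhadh was the only one shared with the unblocked fit.

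**Figure D2:**
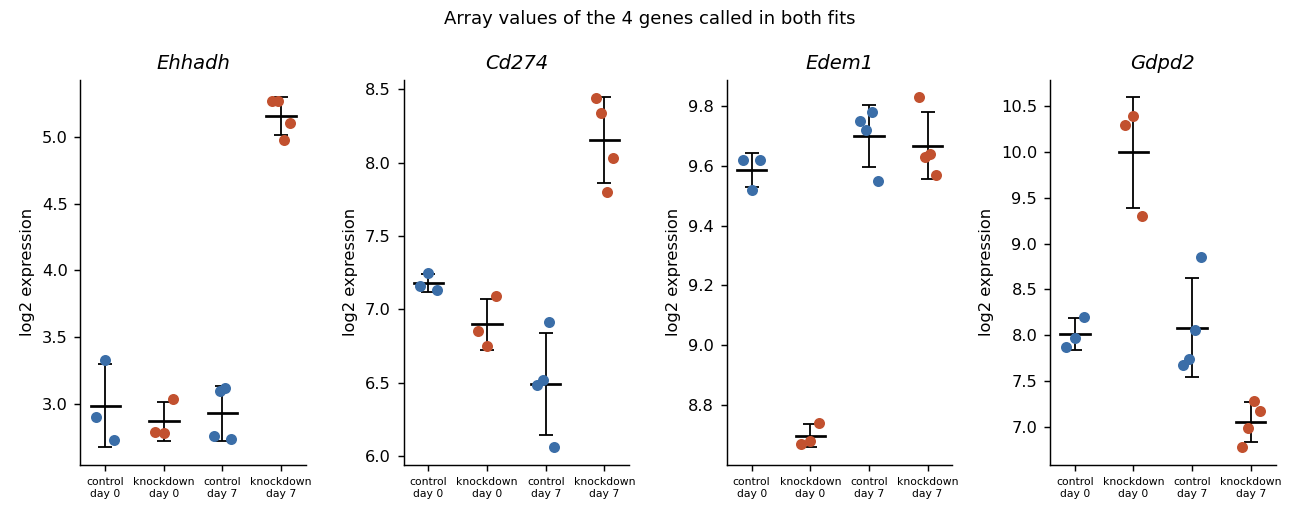
Log2 expression of Ehhadh, Cd274, Edem1 and Gdpd2 in every array; points are arrays, horizontal lines group means and bars SDs (n = 3 per group at day 0, n = 4 at day 7), and axes do not start at 0. Ehhadh is high only in the 4 knockdown arrays at day 7 (4.98 to 5.27), and Edem1 is low only in the 3 knockdown arrays at day 0 (8.67 to 8.74).

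The genes that ranked next by p in each direction did not pass without the block (adjusted p from 0.0529 to 0.0725), and their values are given as a description. Among the 7 positive ones, 5 had a called negative knockdown effect at day 0 and no called effect at day 7 in the unblocked fit. F13a1, the catalytic subunit of clotting factor XIII, was 7.41, 6.84 and 7.32 in control and 4.67, 3.99 and 4.84 in knockdown arrays at day 0, then 5.86, 5.96, 6.53 and 6.16 against 5.78, 5.53, 6.02 and 5.37 at day 7. The day 0 groups were far apart and the day 7 groups overlapped by a little, and the stage difference was 2.24 ± 0.33 (SE; adjusted p = 0.0529, with the block 0.0116). With the block its day 7 effect of -0.45 was called too (adjusted p = 0.0432). Bambi, a decoy receptor that dampens BMP and activin signalling, was 6.89, 6.85 and 7.24 against 5.70, 5.26 and 5.93 at day 0 and 7.96, 7.90, 7.65 and 7.98 against 7.68, 8.11, 8.01 and 7.83 at day 7, for a stage difference of 1.40 ± 0.23 (SE; adjusted p = 0.0653, with the block 0.031). Mfap3l had a stage difference of 1.41, Tesk2, a kinase acting on the actin cytoskeleton, 1.19, and the sorting nexin Snx7 0.68, and each had a called knockdown effect at day 0 (-1.49, -0.84 and -0.55) and none at day 7. The other 2 Mfap3l probe sets, both dimmer, gave 0.19 and 0.49. The other two were called at day 7. Osgin1, an oxidative stress response gene, had effects of -0.58 (called with the block, adjusted p = 0.0313) and 0.91 and a stage difference of 1.49, and Tmem86a, a lysoplasmalogenase, had effects of 0.08 and 1.33 and a stage difference of 1.25 (with the block, adjusted p = 0.0531).

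On the negative side, the next 9 genes fell into those that stood higher in knockdown cells at day 0 and those that stood lower at day 7. Vstm2a, a secreted protein of committed preadipocytes, was 8.25, 8.39 and 8.13 in control and 11.14, 11.03 and 10.74 in knockdown arrays at day 0. At day 7 it was 10.92, 10.87, 11.87 and 11 against 11.53, 11.56, 12.28 and 11.65. Control cells thus reached at day 7 about the level that knockdown cells had at day 0, and the stage difference was -2.12 ± 0.34 (SE; adjusted p = 0.0529), with the lowest adjusted p of all genes under the block, 0.0041. Ncald, a neuronal calcium sensor (-1.25), Matn4, a matrix adaptor protein (-1.19), and Castor2, a partner of the arginine sensor of mTORC1 (-0.72), also had called positive effects at day 0 and no call at day 7 in the unblocked fit. Dimmer probe sets gave stage differences of -1.78 and -2.23 for Ncald and -0.29, -0.32 and -0.02 for Castor2. With the block the day 7 effect of Vstm2a, 0.59, was called as well (adjusted p = 0.0061). Another 5 genes had a called negative effect at day 7 and none at day 0. Crispld1 had a stage difference of -0.83 (a dimmer probe set gave 0.40), Tmem191c -1.06 and the secreted metalloprotease Adamts1 -1.10. Bmt2, an S-adenosylmethionine sensor of mTORC1, had -0.65 (a dimmer probe set gave -0.14). The engulfment adaptor Gulp1 had -0.83 (dimmer probe sets gave -0.81 and -1.15). Of these 9 genes, Adamts1 and Gulp1 were not called with the block (adjusted p = 0.0524 and 0.0534).

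**Figure D3:**
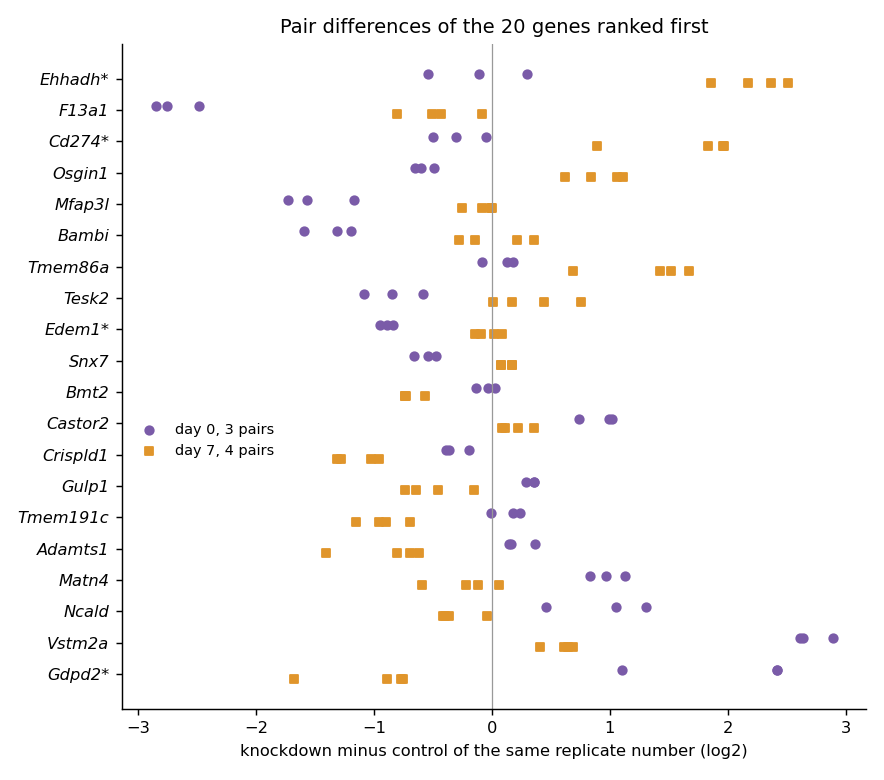
Knockdown minus control of the same replicate number (log2) for the 20 genes ranked first by p, 10 in each direction; circles are the 3 day 0 pairs, squares the 4 day 7 pairs, and asterisks mark the 4 genes called without the block. In each of these genes the circles and squares do not overlap, as in 3699 of all 18193 genes (20.3%).

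The 196 genes called with the block are mostly genes whose knockdown effect pointed in opposite directions on the 2 days. This held for 161 of them, or 82.1%, beside 42% of all genes; since the call is made on the same values, the share is a description. Another 25 kept their direction and had the larger effect at day 0, and 10 at day 7. The 135 positive genes had a median effect of -0.54 at day 0 and 0.42 at day 7, and the 61 negative genes 0.62 and -0.55. Of the 196, 113 had a knockdown effect called with the block at day 0, 124 at day 7 and 41 on both days. Over all genes the block called 4.64% at day 0, 14.7% at day 7 and 334 of 18193 genes on both days. In control cells 66 of the 196 rose with differentiation in the unblocked fit, 24 fell and 106 were not called. Among all 18193 genes 1842 rose, 2320 fell and 14031 were not called. The median change from day 0 to day 7 among the positive genes was 0.36 in control and 1.40 in knockdown cells, and among the negative genes 0.10 and -1.06. Of the 116 genes called on both days without the block, 3 had a stage difference called with the block: Gdpd2 and 2 with the same direction on both days, Cd300lb and Hs3st3b1, named here because the count is small.

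The largest stage differences among the 192 genes called only with the block had the larger knockdown effect at day 0 in 8 of the 10 genes, all but Itpka and Ggt5, counting F13a1 described above. Crabp1, a cytosolic binding protein of retinoic acid, was 5.05, 5.70 and 7.44 in control and 3.00, 2.80 and 3.27 in knockdown arrays at day 0, and between 2.42 and 2.97 in all 8 arrays at day 7. Its stage difference of 3.14 ± 0.57 (SE; adjusted p = 0.0725, with the block 0.0339) came with levels near the bottom of the scale in 3 of 4 groups, so its size and its rank among genes are uncertain. Bst1, an ADP-ribosyl cyclase of stromal cells, had 6.09, 5.97 and 5.81 against 3.54, 3.25 and 3.13 at day 0, and 6.48, 6.33, 8.96 and 6.50 against 6.81, 6.87, 7.63 and 7.41 at day 7 (2.76 ± 0.71 (SE); adjusted p = 0.149, with the block 0.0498). Insl6, a relaxin family peptide, had effects of -1.09 and 1.00 (2.09, with the block adjusted p = 0.0291), and Itpka, an inositol trisphosphate kinase, -0.30 and 1.73 (2.03, with the block 0.0374). On the negative side, the chemokine gene Ccl6 was 8.56, 8.77 and 6.97 in control and 11.75, 11.76 and 9.63 in knockdown arrays at day 0, and 9.28, 9.37, 9.91 and 9.68 against 9.49, 9.57, 11.07 and 9.39 at day 7 (-2.63 ± 0.81 (SE); adjusted p = 0.212, with the block 0.0277). At day 0 replicate 3 was the lowest array of both groups. Robo1, a receptor for Slit guidance proteins, had effects of 2.20 and -0.42 (with the block adjusted p = 0.0106; its 2 dimmer probe sets gave stage differences of -0.37 and -0.10), Elfn1 2.95 and 0.38 (0.0319), the germ cell helicase Ddx4 1.55 and -1.12 (0.034) and the gamma-glutamyltransferase Ggt5 0.63 and -1.61 (0.034). Without the block the adjusted p of these 4 genes was between 0.156 and 0.298.

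The number of calls depended on a few arrays. Leaving out any 1 array gave between 1 and 317 calls without the block. The fits without knockdown day 0 replicate 3 and without knockdown day 7 replicate 3 called 218 and 317 genes, and that without control day 7 replicate 3 called 17. Each fit that left out a replicate 1 or 2 array called between 1 and 3 genes, that without control day 0 replicate 3 called 2, that without control day 7 replicate 4 called 8 and that without knockdown day 7 replicate 4 called 1. With the block, leaving out the replicate 3 pair of day 0 or of day 7 gave 388 and 237 calls, leaving out the replicate 4 pair of day 7 gave 75, and leaving out a replicate 1 or 2 pair gave 0 to 2. Replicates 1 and 2 are the arrays that lie closest together within each group.

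**Figure D4:**
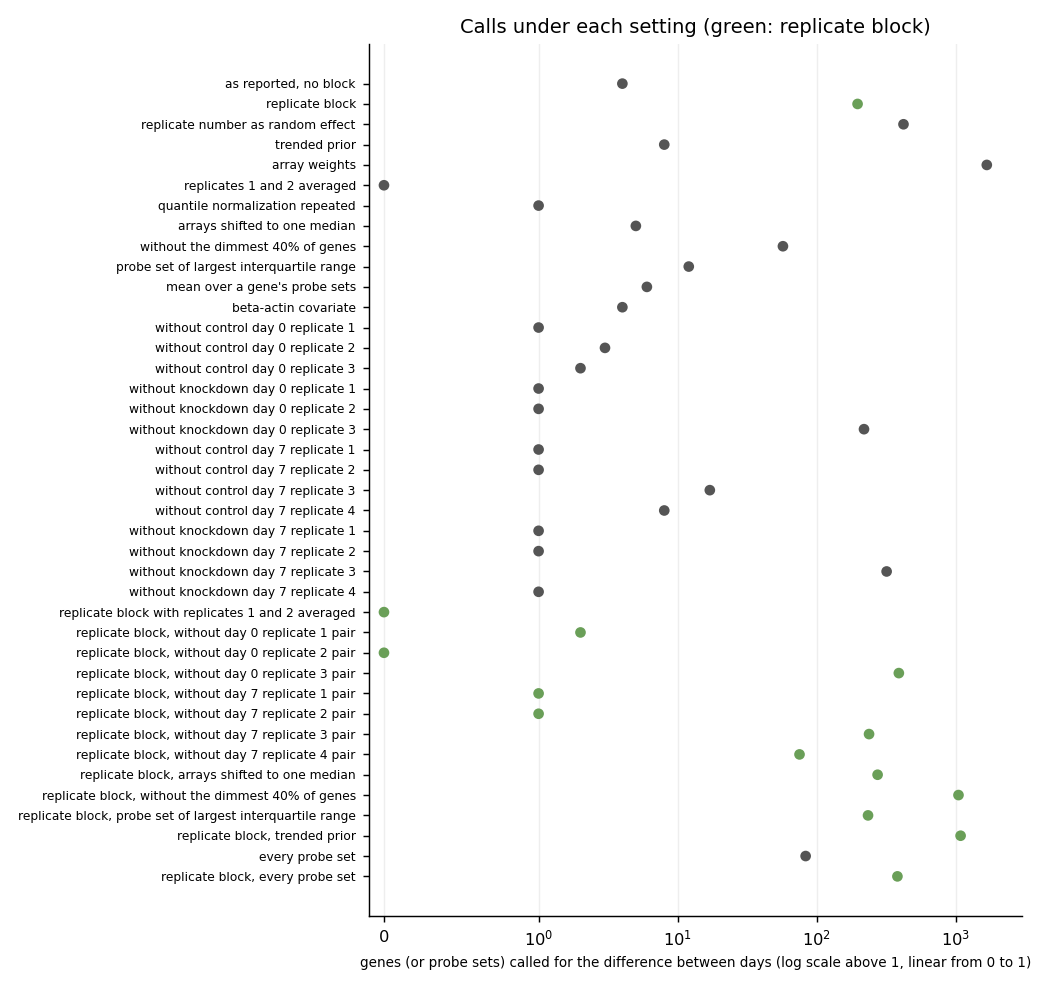
Number of genes called for the stage difference under each setting (horizontal axis logarithmic above 1 and linear from 0 to 1; the lowest pair of settings counts probe sets), with fits that use the replicate block in green. Counts run from 0 with replicates 1 and 2 averaged to 1663 with array weights, against 4 as reported without the block and 196 with it.

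Gene lists for adipocyte biology, signalling, stress and other cell types were compared by the median stage difference of their members, beside 0.04 over all genes. The list of S phase and mitosis genes had the highest median, 0.77, and 33 of its 33 measured genes were positive, beside 55.6% of all genes. None of the 33 passed in either limma fit, while 14 (42.4%, beside 13.2% of all genes) had an unadjusted p under 0.05. Its 2 brightest members were Rrm2, a subunit of ribonucleotide reductase, with a stage difference of 0.64 ± 0.34 (SE; adjusted p = 0.448), and the DNA clamp Pcna, with 0.39 ± 0.21 (SE; adjusted p = 0.449). The median knockdown effect over the list was -0.52 at day 0 and 0.20 at day 7. The mean level of the list was 8.38, 8.38 and 8.34 in control and 7.47, 7.49 and 8.48 in knockdown arrays at day 0, and 10.53, 10.54, 10.29 and 10.10 against 10.70, 10.72, 10.50 and 10.35 at day 7. At day 0 the replicate 1 and 2 knockdown arrays were low and replicate 3 was not, so the groups overlapped: the pair differences, as means over the list, were -0.90, -0.88 and 0.15. At day 7 they were 0.17, 0.17, 0.21 and 0.25. The median stage difference of the list was 0.54 with replicates 1 and 2 averaged and 1.03 without the replicate 3 pair of day 0.

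Lipid metabolism lists had positive medians that came from day 7. In fatty acid and triglyceride synthesis, 20 of 23 genes were positive with a median stage difference of 0.49, from a median effect of -0.03 at day 0 and 0.33 at day 7. None of the 23 passed in either fit, and 7 (30.4%, beside 13.2% of all genes) reached an unadjusted p under 0.05. Scd1, the stearoyl-CoA desaturase, had 0.51 ± 0.17 (SE; adjusted p = 0.245) on its bright probe set and 1.69 ± 0.65 (SE) on a dimmer one, which was called with the block when every probe set was tested (adjusted p = 0.0404, without it 0.268), and Acly, which makes cytosolic acetyl-CoA, 0.00 ± 0.12 (SE; adjusted p = 0.999). Cholesterol synthesis had a median of 0.38 (15 of 19 positive, 0 called) and lipolysis and lipid droplets 0.42 (9 of 13 positive, 0 called). In fatty acid oxidation 17 of 19 genes were positive with a median of 0.19, and Ehhadh was the only gene called. Oxidative phosphorylation had a median of 0.16 with 21 of 25 positive and 0 called. The mature adipocyte markers themselves had a median effect of 0.39 at day 0 and 0.50 at day 7 and a stage difference of 0.19, with 11 of 20 genes positive and 0 called. Among them Fabp4, the fatty acid binding protein of adipocytes, had -0.27 and Lpl, lipoprotein lipase, -0.02. The direction of Fabp4 depended on the probe set: its 2 brighter ones, with mean levels of 13.08 and 12.67, gave -0.27 and -0.35, and its 2 dimmer ones 0.40 and 0.87, none of them called. The mean level of these markers was 5.65 to 6.20 in control and 5.80 to 6.61 in knockdown arrays at day 0, and 7.67 to 8.81 and 8.35 to 9.41 at day 7. Control arrays 3 and 4 at day 7 had the lowest values of their day, 7.68 and 7.67. In all of these lists the replicate 4 pair had the largest mean knockdown effect at day 7. It was 0.76 in the synthesis list (other pairs 0.31 to 0.33), 1.17 in lipolysis (0.24 to 0.76), 0.47 in oxidative phosphorylation (0.15 to 0.22) and 1.74 in the mature markers (0.34 to 0.68). In bulk RNA a larger share of differentiated cells and more RNA per cell cannot be told apart, and the part of differentiation state in the lipid gene values was not tested. Without control day 7 replicate 3 the median of the synthesis list was 0.33, that of lipolysis 0.20, that of oxidative phosphorylation 0.09 and that of the mature markers 0.03. Without control day 0 replicate 3 the median of cholesterol synthesis was 0.21.

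Extracellular matrix genes lay on the negative side: 29 of 35 were negative, with a median stage difference of -0.25, from -0.02 at day 0 and -0.26 at day 7. None passed without the block and Col12a1, a fibril-associated collagen, was called with it. Fmod, a positive member, had 0.64 on its brightest probe set and 1.62 ± 0.25 (SE) on a dimmer one. That dimmer probe set was called when every probe set was tested (limma adjusted p = 0.0483, with the block 0.0302). Col12a1 was 9.91, 9.92 and 9.79 in control and 10.54, 10.36 and 10.58 in knockdown arrays at day 0, and 9.44, 9.25, 10.33 and 8.80 against 8.16, 8.35, 9.28 and 6.90 at day 7. Each knockdown array was above its control at day 0 and below it at day 7, and the stage difference was -1.90 ± 0.63 (SE; adjusted p = 0.233, with the block 0.029). The brightest collagens had smaller values: Col1a2 -0.26 and Col4a1 -0.13, with adjusted p of 0.459 and 0.644. The glucocorticoid response list had a median of -0.29 (12 of 16 negative), its metallothioneins Mt1 and Mt2 having -0.19 and -0.04. Lysosomal genes had -0.20 (20 of 26 negative), with the cathepsin Ctsb at -0.20 and the sterol carrier Npc2 at -0.24. Anti-adipogenic and preadipocyte genes had -0.19 (14 of 20 negative), with Dlk1 at -0.55 and the homeobox gene Prrx1 at -0.50. None of the genes of these 3 lists was called in either fit.

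The genes nearest to TP53INP2 in function mostly showed small stage differences on their brightest probe sets. Its family and the ATG8 proteins that it binds had 7 of 7 genes below 0 with a median of -0.19, and none was called. Gabarap, an ATG8 protein of autophagosome membranes, had -0.19 ± 0.12 (SE), Map1lc3b, which encodes LC3B, -0.29 ± 0.15 (SE; its other 3 probe sets ran from -0.46 to 0.09), and the paralog Trp53inp1 -0.01 ± 0.25 (SE; 95% interval -0.56 to 0.53). A dimmer Trp53inp1 probe set gave -0.81 ± 0.33 (SE). The sign of Trp53inp1 turned with several settings, among them shifting all arrays to a common median (0.03). The autophagy machinery had a median of 0.09 with 20 of 32 genes positive (-0.01 without knockdown day 0 replicate 3), and the thyroid hormone response list 0.02 with 7 of 14. Neither had a called gene, and Vmp1, a membrane protein of early autophagosomes, and Bnip3, a mitophagy receptor, had -0.24 and -0.17. The autophagy gene Wipi2 had -0.08 on its brightest probe set and 1.11 ± 0.19 (SE) on a dimmer one. That dimmer probe set was called when every probe set was tested (limma adjusted p = 0.0487, with the block 0.0304).

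Interferon response genes had a similar median knockdown effect on both days. It was -0.64 at day 0 and -0.68 at day 7, with a median stage difference of 0.00 over 27 genes and 0 called in either fit. Irf1, an interferon-induced transcription factor, had effects of -0.39 and -0.34, and Ifi35 -0.26 and -0.10. No gene of the list had a called effect on either day without the block, and the median stage difference was -0.38 without knockdown day 7 replicate 3 and 0.26 without control day 7 replicate 3. Chemokine and acute phase genes had a median of -0.10, and 3 of 24 were called with the block, all negative (over all genes 1.08% were called and 0.335% called negative): Ccl6, Ccl9 and Serpina3n. Ccl9 was 11.46, 11.38 and 11.01 in control and 12.31, 12.13 and 12.23 in knockdown arrays at day 0, and 11.54, 11.51, 12.23 and 12 against 10.62, 10.66, 12.05 and 10.72 at day 7 (-1.75 ± 0.43 (SE); with the block adjusted p = 0.034). Its second probe set gave -3.01. Serpina3n, an acute phase protease inhibitor, had effects of 1.69 and -0.41 (-2.10, with the block adjusted p = 0.0302), and in both groups at day 7 replicate 3 was the highest array. The median of the list was -0.68 without knockdown day 7 replicate 3 and 0.27 without control day 7 replicate 3.

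Each of the remaining lists had no more than 1 gene called with the block, beside 1.08% of all genes. Counts this small are a description. Klf5, an early adipogenic transcription factor, had effects of 1.11 at day 0 and 0.21 at day 7 and a stage difference of -0.90 (with the block adjusted p = 0.034), the only call among 18 adipogenic transcription factors (median -0.08), while Pparg had effects of 0.46 and 0.50 and a stage difference of 0.05 ± 0.28 (SE; adjusted p = 0.963). Actg2, the smooth muscle gamma-actin, was the only gene of the contractile list (median 0.06) called with the block (1.83, adjusted p = 0.0282). Bambi was the only one called with the block among 21 beta-catenin targets (median 0.07) and among 21 BMP and ID genes (median -0.12). Tcf7l2, of the beta-catenin list, had -0.27 on its brightest probe set and -1.25 ± 0.22 (SE) on a dimmer one. With every probe set tested, the dimmer one passed without the block (limma adjusted p = 0.0496) and not with it (0.0531). Edem1 was the only gene called among 24 unfolded protein response genes, whose median was 0.04, and the chaperone Hspa5 had -0.02 ± 0.10 (SE; adjusted p = 0.96). Lists of Wnt components (-0.03), p53 targets (-0.12), insulin and glucose uptake (-0.13) and brown or beige fat (0.20) had no called gene. The marker lists of macrophage, endothelial, muscle, bone and neural cells, with medians from -0.10 to 0.22, had none either. The bone marker Dmp1 had 1.75 on its brightest probe set, and 2 dimmer ones gave 2.34 and 1.94. With every probe set tested, both dimmer ones were called with the block (limma adjusted p = 0.0388 each) and not without it (0.208 and 0.0817).

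**Figure D5:**
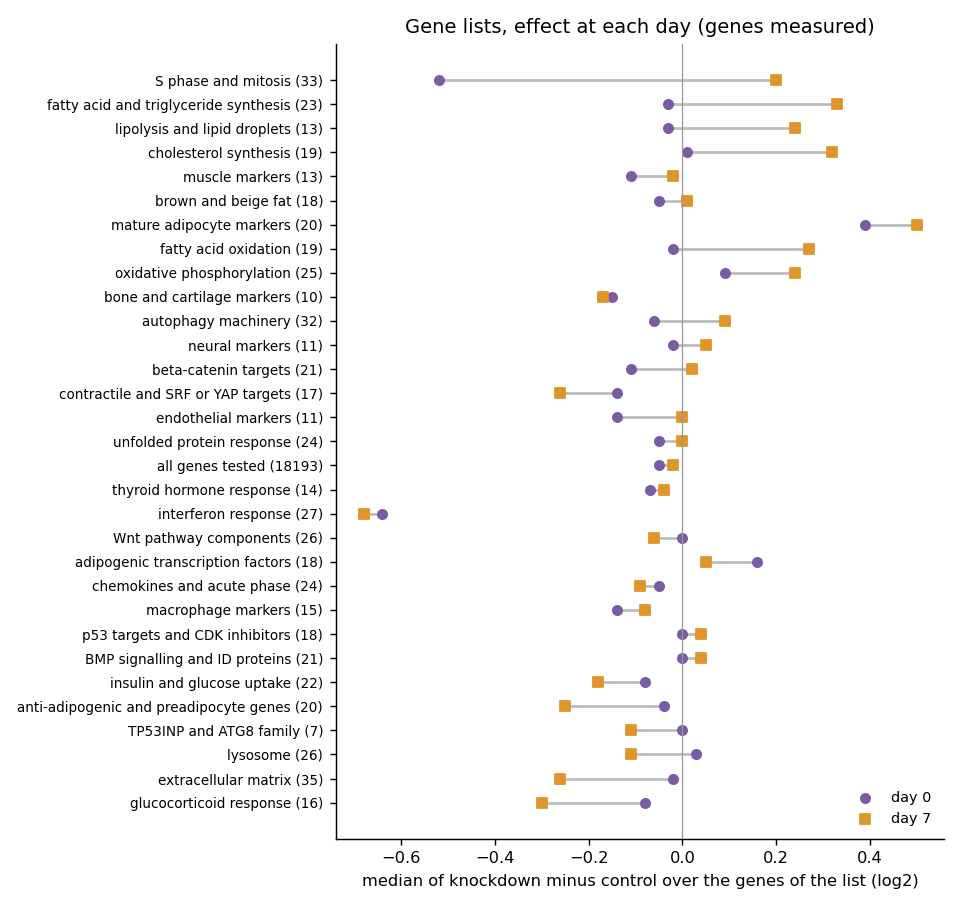
Median of knockdown minus control (log2) over each gene list at day 0 (circles) and day 7 (squares), sorted by the median stage difference, with the number of genes measured in brackets. S phase and mitosis genes lie at -0.52 and 0.20, the interferon list at -0.64 and -0.68, and all genes tested at -0.05 and -0.02.

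Genes with a large knockdown effect on both days show how precisely equal effects could be measured. They were chosen for being called on both days in the same direction and not for stage dependence. Klhl4 was 7.23, 7.27 and 7.33 in control and 3.33, 2.71 and 3.22 in knockdown arrays at day 0, and 7.04, 6.89, 5.89 and 6.66 against 3.36, 2.17, 3.60 and 3.04 at day 7. Its effects of -4.19 and -3.58 gave a stage difference of 0.61 with a 95% interval of -0.38 to 1.61. The interleukin 7 receptor Il7r had effects of -3.08 and -3.22 (-0.14, interval -1.40 to 1.11), the homeobox gene Meox2 -4.59 and -3.27 (1.32, interval -0.15 to 2.79) and 3110039M20Rik -3.54 and -2.85 (0.68, interval -1.36 to 2.73). Itm2a, a membrane protein, had -4.10 and -2.73, and its interval of 0.14 to 2.60 excluded 0 while its adjusted p was 0.32. Among genes higher in knockdown cells, the bicarbonate cotransporter Slc4a4 had effects of 2.23 and 2.06 (-0.17, interval -0.95 to 0.61), Parm1 2.01 and 1.61 (-0.40, interval -0.96 to 0.17), Popdc3 2.26 and 3.00 (0.74, interval -0.70 to 2.17), the lipid raft protein Rftn1 1.56 and 1.79 (0.23, interval -0.57 to 1.03) and the coronin Coro2b 1.49 and 1.43 (-0.06, interval -0.81 to 0.69). With the block the day 0 effect of Popdc3 was not called (adjusted p = 0.0627). None of these 10 stage differences passed, and with intervals of this width equal effects were not shown either.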

How the data were processed

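Total RNA of 14 samples was hybridised to expression arrays, 1 sample each. Per the labels' protocols it was amplified and labelled with biotin. The deposited values are log2 expression values, made by the authors with RMA in the affy package per the submitters' processing notes. No version is given in the sources used here. RMA compresses changes of dim probe sets, and precision is limited by how many arrays there are. Of 45101 probe sets, 64 controls, 932 with several gene symbols and 9160 unnamed here were left out of the gene tests. Symbols of 18031 of 18193 genes matched RefSeq (GRCm38.p6) by gene ID.

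All arrays entered 1 model with a mean per group in limma 3.58.1 (R 4.3.3), with moderated two-sided tests, 12.6 degrees of freedom (7.8 with the block) and Benjamini-Hochberg adjustment over all genes. Every adjusted p in the text is from limma. Calls are at an adjusted p under 0.05. Deviations from the group means of control and knockdown arrays with the same number correlated at 0.19 to 0.33 at day 0 and 0.39 to 0.59 at day 7. By the rule that every such correlation exceed 0.1, the numbers in the labels were taken to pair the arrays. They do not tell replicates 1 and 2 of day 7 apart, which correlated with each other's number at 0.47 and 0.49, beside 0.43 and 0.48 with their own. At day 0 the margin was narrow. Replicates 1 and 2 correlated with their own number at 0.21 and 0.19, and with another number at up to 0.08 or 0.15.

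The members and the 30 gene lists (598 of 644 entries measured) were chosen with earlier results of these data known. Genes are named by rule: the 10 of smallest p in each direction, the 5 largest in each direction called with the block only, 5 in each direction called alike on both days, called list members, the 2 brightest members of a list, Trp53inp2 and Trp53inp1. Alternatives covered the model, array weights, averaging of replicates 1 and 2, normalization, dim genes, choice of probe set, the beta-actin covariate and each array left out.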

Additional observations from a re-analysis of the deposited data

Results flagged for a closer look

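Arrays that stood far from the other arrays of their day 7 group were looked for in 92 groups of the genes named for their stage difference, for steady effects or as TP53INP genes. With independent arrays chance would flag about 1 in 20 such groups. Replicates 1 and 2 lay close together and the genes were chosen from these data, so that rate does not apply here. In all, 13 were found, which is a description only. In control cells at day 7, replicate 3 was apart for Bst1 (8.96, the others 6.33 to 6.50), Elfn1 (7.92, the others 5.83 to 5.89), Vstm2a (11.87, the others 10.87 to 11), Osgin1 (6.05, the others 6.63 to 6.71) and Slc4a4 (5.69, the others 6.58 to 6.73). Replicate 4 was apart for Adamts1 (11.58, the others 11.09 to 11.13) and 3110039M20Rik (8.85, the others 8 to 8.09). In knockdown cells at day 7, replicate 3 was apart for Serpina3n (10.99, the others 8.35 to 8.50), Meox2 (4.71, the others 2.53 to 2.55), Ccl6 (11.07, the others 9.39 to 9.57), Ccl9 (12.05, the others 10.62 to 10.72) and Vstm2a (12.28, the others 11.53 to 11.65), and replicate 4 for Slc4a4 (8.88, the others 8.29 to 8.35). Replicate 3 accounts for 10 of the 13, and for Vstm2a it was the highest array in both groups.

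By the unblocked limma test of the difference itself, the knockdown effect was called as different between the days for 4 genes. The stage difference was 2.34 for Ehhadh, 1.95 for Cd274, 0.86 for Edem1 and -3.00 for Gdpd2. With replicates 1 and 2 averaged 0 genes were called. With quantile normalization repeated, or with the beta-actin covariate, Ehhadh was the only one of the 4 still called.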

How the results depend on the processing

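The 4 genes called without the block kept their direction under every planned setting, passing in 57 gene and setting combinations and missing the threshold in 42. Ehhadh missed it in 1 of 23 unblocked settings and was not tested without the dimmest 40% of genes, being among them. Called for the stage difference (in all; positive, negative): with the replicate block, 196 (135, 61) genes; with replicate number as a random effect, 419 (288, 131); trended prior, 8 (5, 3); array weights, 1663 (962, 701); replicates 1 and 2 averaged, 0 (0, 0); quantile normalization repeated, 1 (1, 0); arrays shifted to a common median, 5 (4, 1), where the median stage difference over all genes moved from 0.04 to 0.09; without the dimmest 40% of genes, 57 (37, 20); probe set of largest interquartile range, 12 (6, 6); mean over probe sets, 6 (3, 3); beta-actin covariate, 4 (3, 1). Leaving out 1 array gave 1 to 317 calls (1 to 172 positive, 0 to 145 negative). Settings chosen after seeing the data, with the block: replicates 1 and 2 averaged, 0 (0, 0); without the day 0 pair of replicate 1, 2 (0, 2), of replicate 2, 0 (0, 0), of replicate 3, 388 (269, 119); without the day 7 pair of replicate 1, 1 (0, 1), of replicate 2, 1 (0, 1), of replicate 3, 237 (114, 123), of replicate 4, 75 (49, 26); common median, 273 (206, 67); without the dimmest 40%, 1041 (725, 316); largest interquartile range, 233 (142, 91); trended prior, 1078 (682, 396). Every probe set tested on its own gave 83 (29, 54) without and 379 (185, 194) with the block, so the split of directions depends on which probe sets are used.

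At day 0 the count of 328 went to 844 with the block, 1088 with the random effect, 1752 with array weights, 24 with replicates 1 and 2 averaged, 517 with a common median, 498 without dim genes, 590 with the beta-actin covariate and 101 to 631 with 1 array left out. At day 7 the count of 1197 went to 2680, 3043, 4488 and 64 under the first 4 of these, 1831 without dim genes, 2804 with the covariate and 369 to 2885 with 1 array left out. The causes were not tested.

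Signs turned for genes with stage differences near 0: Popdc3 (-0.08) and 3110039M20Rik (-0.10) with array weights; Slc4a4 (0.00), Il7r (0.06) and Trp53inp1 (0.10) with replicates 1 and 2 averaged; Trp53inp1 with a common median (0.03) and with the covariate (0.05); Coro2b (0.08) and Il7r (0.07) with the mean over probe sets. With 1 array left out, Rftn1 ran from -0.01 to 0.48, Coro2b from -0.23 to 0.12, Il7r from -0.62 to 0.26 and Trp53inp1 from -0.14 to 0.09.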

Other observations

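Probe sets without a single gene symbol, which entered no comparison above, were tested beside all others in a separate limma fit over 45037 probe sets, a setting added after seeing the data. Of 9160 unnamed probe sets 19 (0.207%) were called for the stage difference, beside 63 of 34945 (0.18%) with a single symbol. All 19 were negative, while 28 of the 63 were positive. With the replicate block 74 unnamed probe sets were called, 8 positive and 66 negative, beside 174 positive and 125 negative ones with a single symbol. The median level of unnamed probe sets was 4.05 and that of probe sets with a single symbol 6.11. Of the 83 probe sets called without the block, 18 are those that stand for their gene in the gene tests. The part of signal level in the direction of these calls was not tested.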
